A study of Mus musculus with 9 samples.

Results

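The genes described are 10 genes that coat, build or empty lipid droplets in the heart: the perilipins Plin2, Plin3, Plin4 and Plin5, the lipases Pnpla2, Lipe and Ces1d, and the triglyceride-making enzymes Dgat1, Dgat2 and Lpin1. They were chosen by gene name from the 21463 genes present in the tables of all 3 ages, with earlier results of these data known. Klf9KI hearts carried the alphaMHC-Cre driver, which is active in cardiomyocytes, together with a Klf9 knock-in transgene, and Wt-Cre hearts carried the driver without it. Whole hearts of both genotypes were taken at 1, 4 and 8 weeks of age, with 3 RNA libraries in each of the 6 groups. Klf9 is one of the Krüppel-like transcription factors, which bind GC-rich DNA. Klf9-bound chromatin was mapped apart from this, in 1 library after transaortic constriction (TAC, a pressure load on the left ventricle, here for 2 weeks) and 1 library after a sham operation, from mice of 12 to 14 weeks. The labels give no genotype beyond those operations for the chromatin.

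The heart burns mostly fatty acids, and it passes many of them through a small store of triglyceride in cytosolic lipid droplets. Lipin makes diglyceride from phosphatidate, the acyltransferases Dgat1 and Dgat2 add the last fatty acid, perilipins cover the droplet surface, and Pnpla2 (adipose triglyceride lipase) and Lipe (hormone-sensitive lipase) take the fatty acids off again. Plin5 is the perilipin of oxidative tissues, where it holds droplets against mitochondria and restrains Pnpla2. Ces1d is a carboxylesterase of the endoplasmic reticulum that hydrolyses triglyceride in liver and adipose tissue.

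Levels are given in CPM, the read count normalised to library size across the 18 libraries, for hearts 1, 2 and 3 of each group. A log2 fold change is that of Klf9KI over Wt-Cre, from edgeR's quasi-likelihood test within 1 age, with its SE and a p-value adjusted over all genes of that age. A change is called at an adjusted p under 0.05. A gene said to fall or rise at an age was lower or higher in Klf9KI than in Wt-Cre hearts of that age. This wording does not describe a change over time, and changes between ages are named as such. The p-values set a difference between groups against the spread between hearts and treat the hearts as independent. The titles give n = 3 per group but no litter, so that independence could not be checked. The 1-week libraries held 17225388 to 32855383 counts, the 4-week libraries 12086856 to 14890828, and the 8-week libraries 12543825 to 19912542. At 1 week the Klf9KI hearts 1 and 2 carried Xist, as female hearts do, and the other 16 libraries did not. With sex as a covariate, or without these 2 libraries, none of the genes described was called at 1 week, but those fits called only 0.0632% and 0.118% of all genes. Klf9 stood at 158, 183 and 152 CPM in Klf9KI hearts and 18.9, 18.1 and 14.0 CPM in Wt-Cre hearts at 1 week (log2 fold change 3.26, adjusted p = 3.55e-09). At 4 weeks it stood at 149, 185 and 175 CPM in Klf9KI hearts and 118, 147 and 127 CPM in Wt-Cre hearts, a difference that was not called (adjusted p = 0.111). At 8 weeks it stood at 125, 144 and 128 CPM in Klf9KI hearts and 52.0, 77.4 and 47.7 CPM in Wt-Cre hearts (1.19, adjusted p = 0.00594).

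Of the 10 genes, Pnpla2 and Lipe were listed at Klf9 regions in the authors' table of 5238 merged regions. Across genes tested at 4 weeks, 38.9% were listed at a region and 28.4% at a region within 1000 bases of a gene start. A region at chr7:141454977-141455283 was listed 58 bases upstream of the start of Pnpla2 by the authors' distance. Its signal was 23.2 in the TAC library and 24.7 in the sham library. A region at chr7:25395535-25396170 was listed in Lipe, 135 bases from its start by that distance. Its signal was 19.95 in the TAC library and 25.5 in the sham library. By the RefSeq windows below, both regions span the start, so these distances do not place a whole region on 1 side of it. Both overlapped a CpG island, as did 80.7% of all regions, and both lay near the median signal over all regions of 23.2 in TAC and 24.6 in sham. Pnpla2 was listed at 3 further regions, at −7538, 12438 and 13512 bases from its start, and all 5 regions were listed with neighbouring genes too. The highest sham value among all 5 was 39.9, at chr7:141467178-141468075, where the TAC library had 27.4, and the list there included Cd151 and Polr2l. The outermost region, at chr7:141468575-141468825, was called present in sham alone. With 1 library per operation these signals have no replicate check, and how they were scaled between the libraries is not given in the sources used here.

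RefSeq promoter windows, from 250 bases before a start to 50 bases after it on build GRCm38.p6, were found for 7 of the 10 genes, in 9 windows. Ces1d, Dgat1 and Dgat2 had no entry. The windows of Pnpla2 and Lipe are shown because Klf9 regions cover 261 and 233 of their 300 bases. Those of Plin3 and Plin5 are shown beside them as windows that hold both motifs, from genes that were lower in Klf9KI hearts and have no listed region. Capitals mark GGGCGG, the GC box to which Krüppel-like factors bind, and CACCC, a second motif of this family, each on either strand. Pnpla2 is read from the plus strand at chr7:141454938-141455237, and the others from the minus strand, Lipe at chr7:25395938-25396237, Plin3 at chr17:56290462-56290761 and Plin5 at chr17:56117499-56117798. All are written from the 5′ to the 3′ end.
Pnpla2: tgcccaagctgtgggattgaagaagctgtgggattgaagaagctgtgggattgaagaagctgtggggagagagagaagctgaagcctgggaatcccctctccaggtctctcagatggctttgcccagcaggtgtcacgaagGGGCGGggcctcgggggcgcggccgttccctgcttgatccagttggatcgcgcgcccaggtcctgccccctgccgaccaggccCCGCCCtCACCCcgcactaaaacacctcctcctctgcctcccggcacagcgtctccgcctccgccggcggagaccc
Lipe: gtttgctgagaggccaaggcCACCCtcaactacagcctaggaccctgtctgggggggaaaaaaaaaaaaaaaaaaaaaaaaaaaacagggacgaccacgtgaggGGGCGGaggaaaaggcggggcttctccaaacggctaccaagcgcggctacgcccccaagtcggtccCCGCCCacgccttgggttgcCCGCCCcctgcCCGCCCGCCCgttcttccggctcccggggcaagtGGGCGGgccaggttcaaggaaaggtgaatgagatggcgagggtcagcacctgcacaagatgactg
Plin3: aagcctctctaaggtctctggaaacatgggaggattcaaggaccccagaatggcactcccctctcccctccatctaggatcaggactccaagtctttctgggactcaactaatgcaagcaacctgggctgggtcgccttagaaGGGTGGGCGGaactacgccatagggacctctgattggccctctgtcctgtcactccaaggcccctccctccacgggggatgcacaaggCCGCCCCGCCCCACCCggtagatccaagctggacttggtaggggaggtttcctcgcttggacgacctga
Plin5: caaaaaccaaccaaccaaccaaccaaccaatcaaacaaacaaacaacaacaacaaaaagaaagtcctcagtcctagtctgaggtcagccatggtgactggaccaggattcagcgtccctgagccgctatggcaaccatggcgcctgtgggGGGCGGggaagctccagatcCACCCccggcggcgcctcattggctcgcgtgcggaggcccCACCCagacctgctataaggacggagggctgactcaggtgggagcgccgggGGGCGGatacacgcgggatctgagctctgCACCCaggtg
The Lipe window printed held 6 GGGCGG matches and 1 CACCC match, and the Pnpla2 window 2 and 1. A second Lipe window, at chr7:25390063-25390362, lay outside the Klf9 regions and held 0 GGGCGG and 1 CACCC matches and 2 CG dinucleotides. Without a listed region, Plin3 held 3 GGGCGG and 2 CACCC matches, Plin5 held 2 and 3, and a second Plin5 window 2 and 5. The windows of Plin4 and Lpin1, which were also lower and have no listed region, held 0 GGGCGG and 2 CACCC matches each, and that of Plin2 held 1 and 0. Matches that overlap, as some do in Lipe and Plin3, were each counted. Among 32851 RefSeq windows of the same length, 35.7% held GGGCGG and 57.5% held CACCC. The printed Lipe and Pnpla2 windows held 19 and 18 CG dinucleotides, against a median of 7 over all windows. A match to these letters describes the window and does not show binding there.

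Among the droplet coat genes, at 1 week none of the 4 perilipins was called in edgeR. At 4 weeks Plin3, Plin4 and Plin5 fell in Klf9KI hearts, and at 8 weeks Plin3 and Plin5 fell. Plin2, the ubiquitous coat protein, was not called at any age.

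Plin3 (mm10 chromosome 17, 56277476 to 56292873, minus strand), a coat protein that moves between the cytosol and new droplets, stood at 37.4, 43.9 and 42.1 CPM in Klf9KI hearts and 55.3, 52.7 and 58.7 CPM in Wt-Cre hearts at 1 week. The groups did not overlap, and the difference of −0.44 (SE 0.11) missed the threshold (adjusted p = 0.0566). The 4-week levels of Plin3 were 52.1, 53.1 and 46.9 CPM in Klf9KI hearts and 131, 134 and 164 CPM in Wt-Cre hearts. At 8 weeks Plin3 stood at 61.0, 74.1 and 63.9 CPM in Klf9KI hearts and 203, 174 and 173 CPM in Wt-Cre hearts. Every Klf9KI heart was below every Wt-Cre heart at these later ages. On the log2 scale Plin3 fell by 1.503 at 4 weeks (SE 0.14, adjusted p = 4.5e-05) and fell by 1.445 at 8 weeks (SE 0.18, adjusted p = 0.000741).

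Plin5 (mm10 chromosome 17, 56111601 to 56117596, minus strand) stood at 40.9, 45.5 and 53.0 CPM in Klf9KI hearts and 65.1, 51.2 and 48.5 CPM in Wt-Cre hearts at 1 week, where the groups overlapped (−0.25, SE 0.13, adjusted p = 0.439). The 4-week levels of Plin5 were 48.9, 56.8 and 56.3 CPM in Klf9KI hearts and 121, 93.1 and 118 CPM in Wt-Cre hearts. At 8 weeks Plin5 stood at 57.2, 72.5 and 49.8 CPM in Klf9KI hearts and 161, 136 and 125 CPM in Wt-Cre hearts. The groups were apart at both later ages. Plin5 fell by 1.04 at 4 weeks (SE 0.14, adjusted p = 0.000662) and by 1.21 at 8 weeks (SE 0.20, adjusted p = 0.00357) on the log2 scale.

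Plin4 (mm10 chromosome 17, 56100591 to 56109803, minus strand) coats small, newly formed droplets and is found mostly in fat and muscle. At 4 weeks it stood at 123.2, 169 and 183 CPM in Klf9KI hearts and 192, 432 and 479 CPM in Wt-Cre hearts. The Wt-Cre heart 1 was far below the other two Wt-Cre hearts and close to the highest Klf9KI heart. The log2 fold change of −1.23 (SE 0.32) passed (adjusted p = 0.0367), and the call was lost without filtering on low counts (adjusted p = 0.225), without any 1 of the 3 Klf9KI hearts (adjusted p = 0.0794 to 0.13) and without Wt-Cre heart 2 or 3 (adjusted p = 0.0957 and 0.235). At 1 week the groups overlapped (0.13, SE 0.31, adjusted p = 0.915). At 8 weeks Plin4 stood at 179.7, 175 and 171 CPM in Klf9KI hearts and 248, 224 and 226 CPM in Wt-Cre hearts. These groups did not overlap, and the difference of −0.38 (SE 0.17) was not called (adjusted p = 0.186). Plin4 and Plin5 are neighbours on chromosome 17, and whether the counting used strand is not given in the sources used here.

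Plin2 (mm10 chromosome 4, 86648386 to 86670060, minus strand) had a log2 fold change of −0.02 at 1 week (SE 0.11, adjusted p = 0.974). The 4-week levels of Plin2 were 38.9, 45.3 and 42.6 CPM in Klf9KI hearts and 57.1, 55.2 and 37.7 CPM in Wt-Cre hearts, which overlapped (−0.25, SE 0.16, adjusted p = 0.374). It passed at that age without Wt-Cre heart 3, the lowest of its group (−0.42, adjusted p = 0.0242). At 8 weeks it stood at 34.0, 51.8 and 44.2 CPM in Klf9KI hearts and 87.7, 62.2 and 64.5 CPM in Wt-Cre hearts. The groups were apart at 8 weeks, and the difference of −0.70 (SE 0.22) missed the threshold (adjusted p = 0.0642). It passed with the DESeq2 Wald test (adjusted p = 0.0404), without a filter (adjusted p = 0.0396), in the fit of all 18 libraries (−0.72, adjusted p = 0.00602) and without Klf9KI heart 2 (−0.84, adjusted p = 0.0124).

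**Figure D1:**
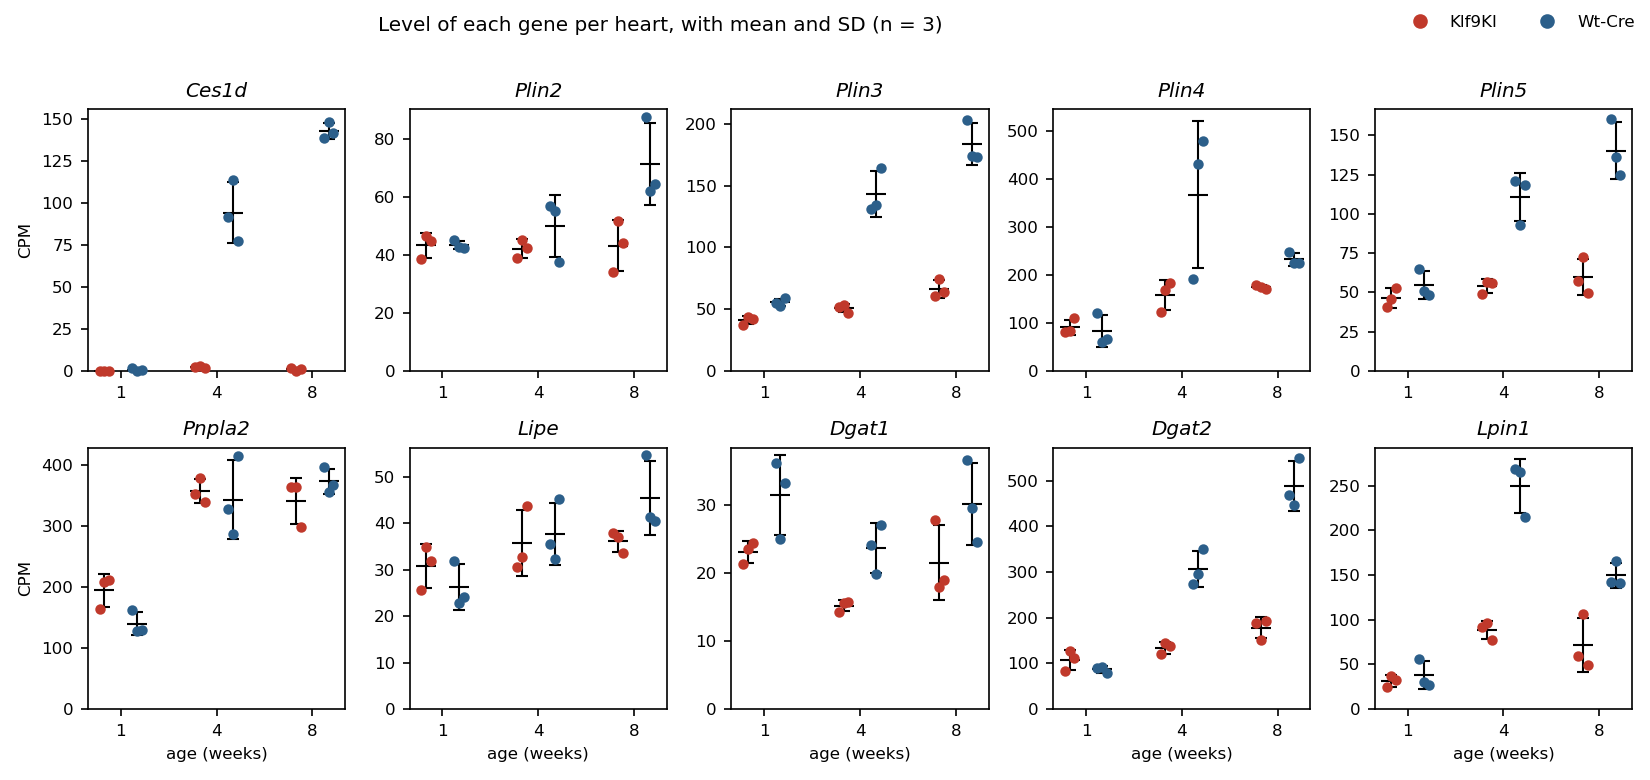
Level of each of the 10 genes in CPM (vertical axis, linear, scaled across the 18 libraries) at 1, 4 and 8 weeks of age (horizontal axis), with 1 point per heart, Klf9KI in red to the left and Wt-Cre in blue to the right, and black bars for the mean and SD of 3 hearts. Ces1d, Plin3, Plin4, Plin5, Dgat2 and Lpin1 separate by genotype at 4 and 8 weeks, Plin2 and Lipe at 8 weeks, Dgat1 at 4 weeks, and Pnpla2 at neither age. Separation is not a call, and Plin2, Plin4 and Lipe were not called at 8 weeks. With 3 hearts against 3, full separation alone gives an exact two-sided permutation p of 0.1. The share of all genes that separate in this way was not computed, so these separations do not set the 10 genes apart from others.

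On the authors' FPKM scale, which corrects for gene length and lets genes be set beside each other, the 4 perilipins summed to 68.3, 82.0 and 82.1 in Klf9KI hearts and 140, 172 and 194 in Wt-Cre hearts at 4 weeks. At 8 weeks they summed to 83.9, 99.0 and 83.4 FPKM in Klf9KI hearts and 195, 168 and 160 FPKM in Wt-Cre hearts. Both contrasts were apart in every heart, with an exact two-sided permutation p of 0.1, the smallest that 3 against 3 allows. At 1 week the sums were 60.4 ± 6.20 in Klf9KI and 66.9 ± 10.4 in Wt-Cre hearts (SD, n = 3 each), and they overlapped.

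The make-up of the coat transcripts was read as each gene's share. Plin3 was 19.1, 19.7 and 20.4% of the perilipin FPKM in Klf9KI hearts and 27.1, 27.4 and 28.1% in Wt-Cre hearts at 8 weeks. Plin4 was 36.9, 30.5 and 35.7% in Klf9KI hearts and 21.6, 23.1 and 24.0% in Wt-Cre hearts at that age. Plin2 was 15.9, 15.5 and 14.6% in Klf9KI hearts and 11.5, 9.21 and 5.54% in Wt-Cre hearts at 4 weeks. Each of these shares was apart between the groups (exact permutation p = 0.1). The share of Plin4 at 4 weeks was 34.6 ± 3.74% in Klf9KI and 36.7 ± 11.5% in Wt-Cre hearts (exact permutation p = 0.8, n = 3 each). That of Plin5 was 32.9 ± 0.663% and 32.1 ± 7.69% at 4 weeks in the same order (exact permutation p = 1). The Plin5 share was lower in Klf9KI hearts at 1 week, at 36.3 ± 0.832% against 38.8 ± 1.41%. It was also lower at 8 weeks, at 32.1 ± 3.14% against 38.1 ± 1.24% (exact permutation p = 0.1 each). The Plin3 share at 4 weeks was 17.2 ± 2.45% against 22.5 ± 1.79% (exact permutation p = 0.1). The share of Plin2 was 13.8 ± 2.04% and 11.5 ± 1.02% at 8 weeks (exact permutation p = 0.2). Plin5 was the highest of the 4 by FPKM in both genotypes at 1 week, with 21.9 ± 2.68 in Klf9KI and 25.99 ± 4.24 in Wt-Cre hearts. At 8 weeks Plin5 averaged 28.6 ± 5.46 FPKM in Klf9KI hearts and 66.6 ± 8.51 in Wt-Cre hearts, while Plin4 averaged 30.3 ± 0.586 and 39.9 ± 2.09 in the same order of groups. In the Klf9KI hearts at 8 weeks these levels of Plin4 and Plin5 differed by less than their spread.

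**Figure D2:**
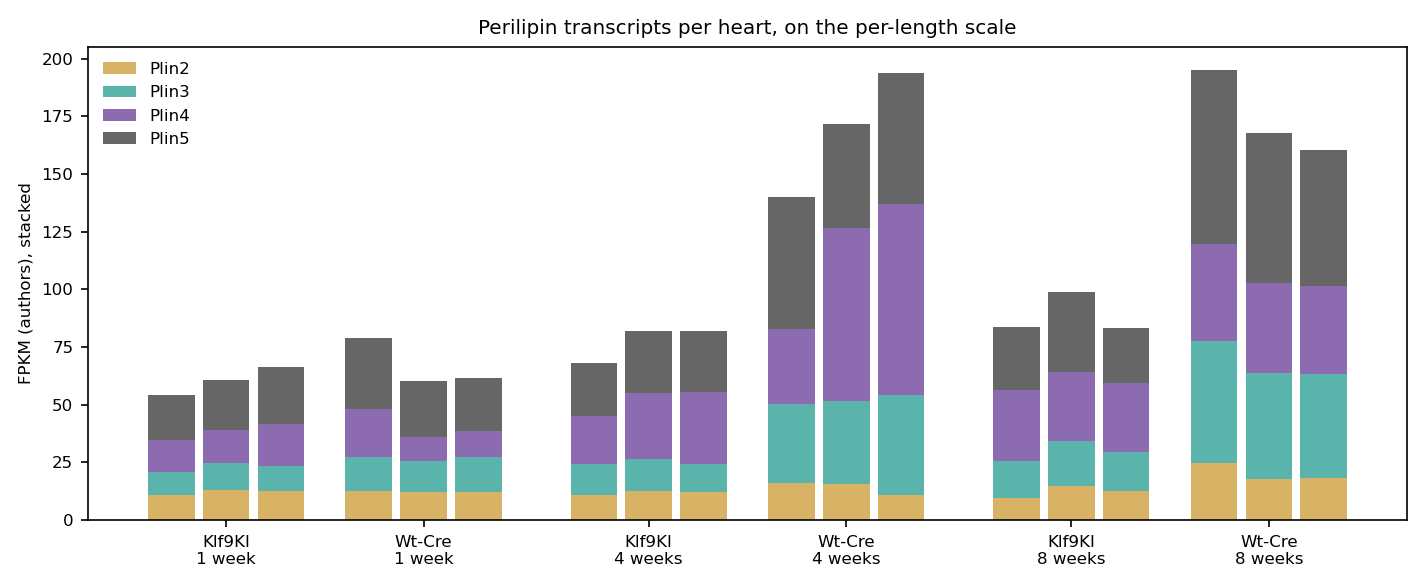
Summed perilipin transcripts in each heart (1 bar per heart, in the authors' FPKM, linear axis from 0), stacked as Plin2, Plin3, Plin4 and Plin5 from the bottom, with Klf9KI to the left of Wt-Cre at each age. The Klf9KI bars end between 68.3 and 99.0 at 4 and 8 weeks and the Wt-Cre bars between 140 and 195.

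The lipases differed from one another. Pnpla2, which takes the first fatty acid off triglyceride, and Lipe, which acts on the diglyceride left over, were not called at any age. Ces1d fell further than any other of the 10 genes at 4 and at 8 weeks.

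Pnpla2 (mm10 chromosome 7, 141455198 to 141460743, plus strand) stood at 352, 378 and 339 CPM in Klf9KI hearts and 328, 287 and 413 CPM in Wt-Cre hearts at 4 weeks. At 8 weeks Pnpla2 stood at 363, 363 and 297 CPM in Klf9KI hearts and 396, 355 and 367 CPM in Wt-Cre hearts. The groups overlapped at both ages, with log2 fold changes of 0.05 (SE 0.15, adjusted p = 0.873) and −0.10 (SE 0.18, adjusted p = 0.78). At 1 week it stood at 163, 209 and 211 CPM in Klf9KI hearts and 161, 128 and 129 CPM in Wt-Cre hearts. No Klf9KI heart was below a Wt-Cre heart at 1 week, and the difference of 0.47 (SE 0.13) missed the threshold (adjusted p = 0.0788). It passed with the DESeq2 Wald test (adjusted p = 0.0142), without a filter (adjusted p = 0.00394) and without Klf9KI heart 1 or Wt-Cre heart 1 (adjusted p = 0.0312 and 0.0438).

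Lipe (mm10 chromosome 7, 25379527 to 25398710, minus strand) stood at 30.7, 32.7 and 43.8 CPM in Klf9KI hearts and 35.6, 32.3 and 45.2 CPM in Wt-Cre hearts at 4 weeks, with the groups mixed. At 8 weeks Lipe stood at 37.8, 37.0 and 33.6 CPM in Klf9KI hearts and 54.6, 41.3 and 40.5 CPM in Wt-Cre hearts, where every Klf9KI heart was the lower but the difference was not called. Its log2 fold changes were 0.22 (SE 0.16) at 1 week, −0.09 (SE 0.18) at 4 weeks and −0.31 (SE 0.19) at 8 weeks, with adjusted p = 0.604, 0.81 and 0.364. Per length, Pnpla2 stood well above Lipe in every heart. The ratio of their FPKM was 18.4 ± 0.975 in Klf9KI and 16.2 ± 1.83 in Wt-Cre hearts at 8 weeks.

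Ces1d (ENSMUSG00000056973, mm10 chromosome 8, 93166068 to 93197838, minus strand) was near 0 in every 1-week heart, with 0, 0 and 5 counts in Klf9KI and 41, 0 and 18 counts in Wt-Cre hearts, and was too low to be tested there. The 4-week levels of Ces1d were 2.26, 2.70 and 1.56 CPM in Klf9KI hearts and 91.3, 114 and 77.5 CPM in Wt-Cre hearts. At 8 weeks Ces1d stood at 1.52, 0.0804 and 1.27 CPM in Klf9KI hearts and 138, 148.1 and 141 CPM in Wt-Cre hearts. The lowest of these is 1 count. Ces1d fell by 5.44 at 4 weeks (SE 0.23, adjusted p = 4.41e-07) and by 7.10 at 8 weeks (SE 0.49, adjusted p = 5.33e-05) on the log2 scale, or 43.3-fold and 137-fold lower. It lies in a cluster of related Ces1 genes, so reads may be split between them. The other Ces1 genes stayed at or under 0.985 CPM in Klf9KI and 0.516 CPM in Wt-Cre hearts at 4 and 8 weeks, by CPM scaled within an age.

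Of the triglyceride-making enzymes, Dgat1, Dgat2 and Lpin1 all fell at 4 weeks, and Dgat2 and Lpin1 fell at 8 weeks. Dgat2 (mm10 chromosome 7, 99153658 to 99182719, minus strand), which uses newly made fatty acid at the endoplasmic reticulum and droplet surface, stood at 83.4, 127 and 111 CPM in Klf9KI hearts and 90.1, 92.6 and 77.9 CPM in Wt-Cre hearts at 1 week. The groups overlapped there (0.29, SE 0.14, adjusted p = 0.361). The 4-week levels of Dgat2 were 119.9, 145 and 137 CPM in Klf9KI hearts and 275, 297 and 349.6 CPM in Wt-Cre hearts. At 8 weeks Dgat2 stood at 189, 151 and 193 CPM in Klf9KI hearts and 469.7, 446 and 549 CPM in Wt-Cre hearts. Dgat2 fell by 1.203 at 4 weeks (SE 0.14, adjusted p = 0.000353) and by 1.43 at 8 weeks (SE 0.20, adjusted p = 0.00141), with every Klf9KI heart below every Wt-Cre heart.

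Lpin1 (mm10 chromosome 12, 16535669 to 16610966, minus strand), a phosphatidate phosphatase that also acts with PPAR-alpha in the nucleus, stood at 92.0, 95.9 and 77.0 CPM in Klf9KI hearts and 268, 266 and 215 CPM in Wt-Cre hearts at 4 weeks. Its log2 fold change was −1.505 (SE 0.15, adjusted p = 7.69e-05). At 8 weeks it stood at 59.6, 106 and 49.9 CPM in Klf9KI hearts and 142, 166 and 141 CPM in Wt-Cre hearts. Klf9KI heart 2 stood nearer to the Wt-Cre hearts than to its own group. The fall of 1.04 (SE 0.26, adjusted p = 0.0279) at 8 weeks was lost without Klf9KI heart 1 (adjusted p = 0.125) or without Wt-Cre heart 1, 2 or 3 (adjusted p = 0.0986, 0.129 and 0.0834). At 1 week Lpin1 was −0.27 (SE 0.32, adjusted p = 0.8).

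Dgat1 (mm10 chromosome 15, 76502015 to 76511953, minus strand), the acyltransferase that also re-esterifies fatty acid from outside the cell, fell at 4 weeks, with a log2 fold change of −0.65 (SE 0.16, adjusted p = 0.0214). It stood at 14.3, 15.6 and 15.8 CPM in Klf9KI hearts and 24.1, 19.9 and 27.2 CPM in Wt-Cre hearts, without overlap. The call was lost without any 1 of the 3 Klf9KI hearts (adjusted p = 0.0727 to 0.115) and in the fit of all 18 libraries (adjusted p = 0.0502). At 1 and 8 weeks the log2 fold changes were −0.46 (SE 0.15, adjusted p = 0.162) and −0.46 (SE 0.25, adjusted p = 0.281). The 1-week difference passed without Wt-Cre heart 2 (−0.60, adjusted p = 0.0482).

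The balance between the acyltransferases was read per length. The ratio of Dgat2 to Dgat1 in FPKM was 3.87, 5.31 and 4.52 in Klf9KI hearts and 2.46, 3.67 and 2.32 in Wt-Cre hearts at 1 week. It was 8.30, 9.23 and 8.60 in Klf9KI hearts and 11.3, 14.8 and 12.7 in Wt-Cre hearts at 4 weeks. It was 6.72, 8.37 and 10.1 in Klf9KI hearts and 12.7, 14.9 and 22.1 in Wt-Cre hearts at 8 weeks. The Klf9KI hearts had the higher ratios at 1 week and the lower ratios at 4 and 8 weeks, without overlap at any age (exact permutation p = 0.1 each). Set against the lipase, the ratio of Dgat2 to Pnpla2 was 0.518 ± 0.114 in Klf9KI and 1.29 ± 0.159 in Wt-Cre hearts at 8 weeks (SD, n = 3 each). The ratio of Plin5 to Pnpla2 was 0.253 ± 0.0318 in Klf9KI and 0.545 ± 0.0486 in Wt-Cre hearts at 8 weeks. It was also lower in Klf9KI hearts at 1 week, at 0.347 ± 0.0273 against 0.569 ± 0.0227 in Wt-Cre hearts, with no overlap in either comparison (exact permutation p = 0.1 each). The ratios at 1 week were not adjusted for sex, although Klf9KI hearts 1 and 2 of that age carried Xist, unlike the Wt-Cre hearts.

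On the FPKM scale Pnpla2 was the highest of the 10 genes at 4 weeks, at 116 ± 6.28 in Klf9KI and 113 ± 21.3 in Wt-Cre hearts (SD, n = 3 each). Dgat2 came next, at 42.8 ± 4.18 FPKM in Klf9KI and 99.5 ± 12.95 FPKM in Wt-Cre hearts, and in Wt-Cre hearts these neighbours differed by less than their spread. Plin4 and Plin5 followed at 27.0 ± 5.38 and 25.5 ± 2.14 FPKM in Klf9KI hearts, and at 63.7 ± 27.0 and 53.0 ± 6.90 FPKM in Wt-Cre hearts, again within their spread. Below them stood Plin3, at 13.2 ± 0.835 FPKM in Klf9KI and 37.7 ± 4.996 FPKM in Wt-Cre hearts, and Plin2, at 11.9 ± 0.931 FPKM in Klf9KI and 14.2 ± 3.01 FPKM in Wt-Cre hearts. Lpin1 stood at 8.99 ± 1.00 FPKM in Klf9KI and 25.8 ± 3.09 FPKM in Wt-Cre hearts. Dgat1 and Lipe were low in both genotypes, Dgat1 at 4.91 ± 0.269 FPKM in Klf9KI and 7.755 ± 1.17 FPKM in Wt-Cre hearts, and Lipe at 5.98 ± 1.2 and 6.39 ± 1.135 FPKM in the same order of groups. Ces1d changed its place most, being the lowest of the 10 in Klf9KI hearts at 0.902 ± 0.238 FPKM and the fifth in Wt-Cre hearts at 39.7 ± 7.97 FPKM, beside Plin3 and within its spread.

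Counted together, 0 of the 9 genes tested at 1 week were called in edgeR, against 1.68% of all genes tested. At an unadjusted p under 0.05, 4 of the 9 passed, against 13.8% of all genes. The DESeq2 Wald test called 2, Plin3 and Pnpla2, against 3.92% of all genes it tested. The authors' deposited table also called Plin3 and Pnpla2 at 1 week, among 1.99% of the genes it lists. At 4 weeks 7 of 10 fell and 0 rose, where 6.75% of all genes tested fell. The median log2 fold change was −1.12, against 8.9e-05 over all genes. At 8 weeks 5 of 10 fell and 0 rose, where 5.52% of all genes tested fell, with a median of −0.87 against 0.04 over all genes. The authors' deposited table called 7 of the 10 at 4 weeks and 6 at 8 weeks, the further gene being Plin2, where it called 8.94% and 6.76% of the genes it lists. Because the 10 genes were chosen with earlier results of these data known, these counts describe them and do not test them as a set.

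**Figure D3:**
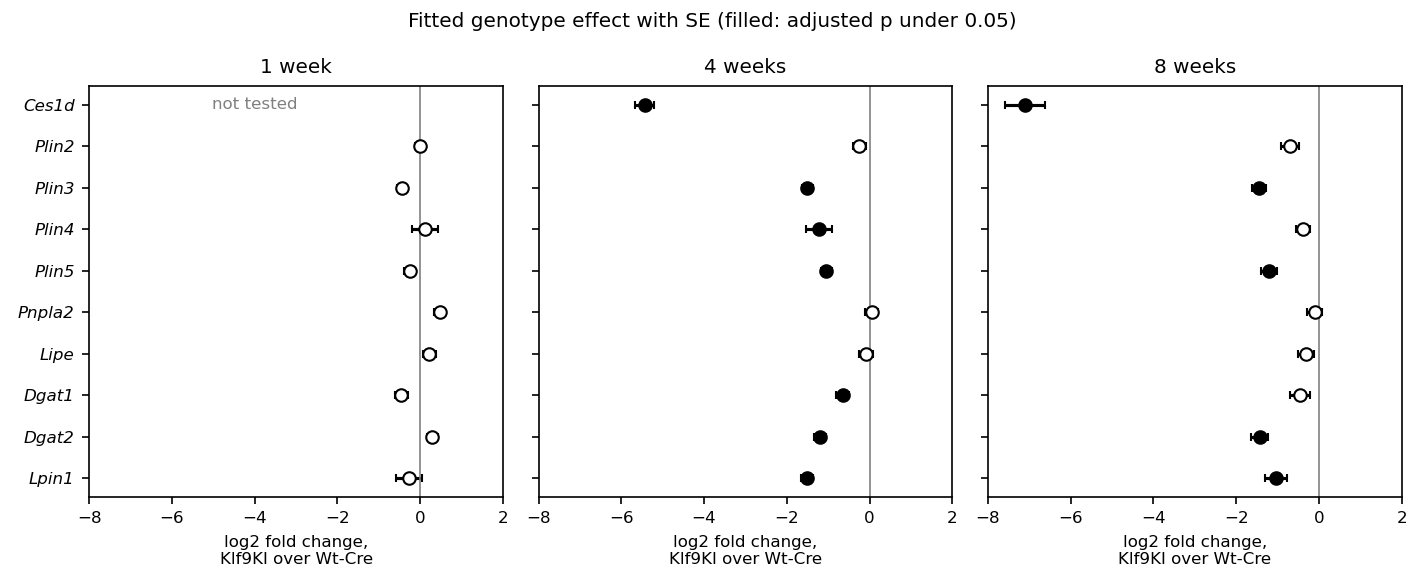
Fitted log2 fold change of Klf9KI over Wt-Cre (horizontal axis) with its SE for each of the 10 genes (rows) at 1, 4 and 8 weeks (panels), from edgeR with 3 hearts per group. Filled points have an adjusted p under 0.05: none at 1 week, 7 at 4 weeks and 5 at 8 weeks, all to the left of 0.

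Whether these genotype effects differed between ages was tested in 1 fit of all 18 libraries. In it age and any batch that follows age cannot be told apart, although a shift shared by both genotypes of an age cancels. A shift in 1 genotype alone does not cancel. Klf9KI hearts 1 and 2 of 1 week carried Xist, and these tests did not adjust for sex. Between 4 weeks and 1 week the effect moved down for 2 of 10 genes, against 0.468% of all genes. These were Plin3 (−1.06, SE 0.18, adjusted p = 0.00315) and Dgat2 (−1.498, SE 0.23, adjusted p = 0.00112). Between 8 weeks and 1 week it moved down for 3 of 10, against 5.53% of all genes: Plin3 (−1.04, SE 0.18, adjusted p = 0.00136), Plin5 (−0.99, SE 0.23, adjusted p = 0.0097) and Dgat2 (−1.76, SE 0.23, adjusted p = 8.81e-05). Between 8 and 4 weeks 0 of 10 passed in edgeR, against 0.48% of all genes, and 0 in the DESeq2 Wald test. None of the 10 had an unadjusted p under 0.05 for 8 against 4 weeks. The change in Ces1d between 4 weeks and 1 week could not be resolved from its few counts at 1 week (−1.82, SE 2.02, adjusted p = 0.896).

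In Wt-Cre hearts 8 of the 10 genes rose between 1 and 4 weeks, where 17.4% of all genes did. Ces1d averaged 0.819, 94.2 and 143 CPM in Wt-Cre hearts at 1, 4 and 8 weeks, and its log2 rise between 1 and 4 weeks was 6.83 (SE 0.64, adjusted p = 1.52e-06). Lpin1 rose by 2.72, Plin4 by 2.15, Dgat2 by 1.82, Plin3 by 1.37, Pnpla2 by 1.296, Plin5 by 1.01 and Lipe by 0.52. The rise of Lipe (adjusted p = 0.0336) was lost without Wt-Cre heart 2 or 3 of 1 week or Wt-Cre heart 1 or 3 of 4 weeks (adjusted p = 0.0518 to 0.173). Plin2 (0.20) and Dgat1 (−0.41) were not called. Between 4 and 8 weeks 2 of 10 rose in Wt-Cre hearts, where 11% of all genes did. Dgat2 rose by 0.67 (SE 0.16, adjusted p = 0.00617). Plin2 rose by 0.52 (SE 0.18, adjusted p = 0.0461), a call that was lost under 16 of 22 alternatives. Lpin1 (−0.74, SE 0.26, adjusted p = 0.0537) and Plin4 (−0.66, SE 0.28, adjusted p = 0.104) had lower means at 8 weeks and missed the threshold, but passed under 9 and 2 of 22 alternatives. Plin3 (0.36, adjusted p = 0.0569) passed under 4.

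Set beside these courses, the Klf9KI means of Plin3 and Plin5 moved less with age. Plin3 averaged 41.1, 50.7 and 66.3 CPM in Klf9KI hearts and 55.5, 143 and 184 CPM in Wt-Cre hearts at 1, 4 and 8 weeks. Plin5 averaged 46.5, 54.0 and 59.8 CPM in Klf9KI hearts and 54.9, 111 and 140.4 CPM in Wt-Cre hearts at these ages. Pnpla2 averaged 194, 357 and 341 CPM in Klf9KI hearts and 139.5, 343 and 372 CPM in Wt-Cre hearts. Lipe averaged 30.8, 35.7 and 36.1 CPM in Klf9KI hearts and 26.3, 37.7 and 45.5 CPM in Wt-Cre hearts. The means of Lpin1, Plin4 and Dgat2 were higher after 1 week in Klf9KI hearts too. Lpin1 averaged 31.7, 88.3 and 71.8 CPM in Klf9KI hearts and 37.9, 249.6 and 149.6 CPM in Wt-Cre hearts. Plin4 averaged 91.2, 158 and 175 CPM in Klf9KI hearts and 82.9, 367 and 233 CPM in Wt-Cre hearts. Dgat2 averaged 107, 134 and 178 CPM in Klf9KI hearts and 86.9, 307 and 488 CPM in Wt-Cre hearts. The Wt-Cre course and the genotype comparison at 4 weeks share the 4-week Wt-Cre libraries, so the values stand side by side without a test between them. Changes with age within Klf9KI hearts were not tested.

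Bulk hearts cannot tell fewer cells of a type from less RNA per cell. The 8 cardiomyocyte markers (Myh6, Actc1, Tnnt2, Tnni3, Myl2, Ryr2, Pln and Actn2) summed to 44029 to 50654 CPM in Klf9KI and 59117 to 66856 CPM in Wt-Cre hearts at 4 weeks, scaled within that age. At 8 weeks they summed to 31104 to 32319 CPM in Klf9KI and 44048 to 56243 CPM in Wt-Cre hearts. Of these 8 markers, 3 fell at 4 weeks and 2 at 8 weeks, where 6.75% and 5.52% of all genes tested fell. Their medians were −0.37 and −0.70 on the log2 scale. The 10 macrophage markers summed to 372 to 609 CPM in Klf9KI and 301 to 359.5 CPM in Wt-Cre hearts at 4 weeks, and to 482 to 584 CPM and 294.5 to 398 CPM at 8 weeks in the same order. The 5 fibroblast markers summed to 1101 to 1323 CPM in Klf9KI and 772 to 1049 CPM in Wt-Cre hearts at 4 weeks. At 8 weeks they summed to 741 to 1299 CPM in Klf9KI and 489.8 to 603 CPM in Wt-Cre hearts. The 5 endothelial markers overlapped, with 980 to 1077 CPM in Klf9KI and 837 to 1037 CPM in Wt-Cre hearts at 4 weeks. At 8 weeks their sums were 410 to 802 CPM and 477 to 564 CPM in the same order. Atrial markers were uneven at 1 week, where Myl7 stood at 439, 2.80 and 31.7 CPM in Klf9KI hearts, against 638, 218 and 1237 CPM in Wt-Cre hearts. At 4 and 8 weeks Myl7 stood at or under 1.46 CPM in Klf9KI and 0.557 CPM in Wt-Cre hearts. Of that list Nppa, a stress marker of the ventricle too, stood at 1379 to 2442 CPM in Klf9KI and 33.5 to 84.0 CPM in Wt-Cre hearts at 4 weeks. The part of these shifts in the results above was not tested.

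Fat cells carry many of these genes, so their markers were read too. Plin1, the perilipin of fat cells, stood at or under 0.938 CPM in Klf9KI and 0.940 CPM in Wt-Cre hearts over all ages. Cidec, which enlarges droplets in fat cells, stood at or under 0.272 CPM in Klf9KI and 1.205 CPM in Wt-Cre hearts. The 10 markers other than Fabp4 and Cidea summed to 3.51 to 12.9 CPM in Klf9KI and 6.53 to 33.5 CPM in Wt-Cre hearts at 1 week, and to 13.8 to 16.3 CPM in Klf9KI and 13.5 to 23.8 CPM in Wt-Cre hearts at 4 weeks, scaled within each age. At 8 weeks they summed to 17.5 to 38.0 CPM in Klf9KI and 41.3 to 52.2 CPM in Wt-Cre hearts, without overlap. The highest of them there was Thrsp, which acts in fatty acid synthesis, at up to 36.5 CPM in Klf9KI and 50.4 CPM in Wt-Cre hearts. The whole list of 12 fat-cell markers, of which 11 were listed at 1 week, 9 at 4 weeks and 12 at 8 weeks, summed to 642 to 776 CPM in Klf9KI and 573 to 690.3 CPM in Wt-Cre hearts at 1 week, scaled within that age. At 4 weeks it summed to 355 to 493 CPM in Klf9KI and 479.9 to 832 CPM in Wt-Cre hearts. At 8 weeks it summed to 440.3 to 619 CPM in Klf9KI and 513 to 610.1 CPM in Wt-Cre hearts. Fabp4, which endothelial cells of the heart make as well, gave 331 to 466 CPM in Klf9KI and 445.9 to 787 CPM in Wt-Cre hearts at 4 weeks and was most of that sum. Cidea stands in this list and in the droplet coat list below.

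The wider pathway was read from 6 lists with 69 further genes. At 1 week 1 of 44 tested rose and 1 fell, beside 1.68% of all genes called in either direction. At 4 weeks 1 of 42 rose, where 6.65% of all genes did, and 7 fell, where 6.75% of all genes did. With the replicate number as a block, which treats same-numbered hearts as pairs, 3 rose and 10 fell, where 8.61% and 9.07% of all genes did under the same block. At 8 weeks 3 of 42 rose, where 4.96% of all genes did, and 5 fell, where 5.52% of all genes did. The counts of single lists below stand against these same shares of all genes. The medians over all 6 lists were 0.02, −0.08 and −0.11 on the log2 scale at 1, 4 and 8 weeks.

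In the list of phosphatidate and triglyceride synthesis, 1 of 11 fell at 1 week, 3 of 11 at 4 weeks and 2 of 10 at 8 weeks, and none rose. Agpat2, which makes the phosphatidate on which lipin acts, fell at all 3 ages, by 1.00, 1.59 and 1.02 on the log2 scale (adjusted p = 0.00643, 0.000766 and 0.0327). At 4 weeks Agpat2 stood at 8.33, 10.2 and 14.2 CPM in Klf9KI hearts and 27.5, 39.4 and 31.5 CPM in Wt-Cre hearts. The calls of Agpat2 at 1 and at 8 weeks were each lost in 4 alternatives (adjusted p up to 0.138 and 0.145). Agpat3 fell by 0.65 at 4 weeks and by 0.70 at 8 weeks, and Agpat1 fell by 0.50 at 4 weeks. Of 14 alternatives, the call of Agpat3 was lost in 4 at 4 weeks and in 5 at 8 weeks, and that of Agpat1 in 4.

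In the list of droplet coat, formation and growth, 3 of 9 fell and 1 rose at 4 weeks, and 2 of 9 fell at 8 weeks. Fitm1 and Fitm2, membrane proteins of the endoplasmic reticulum that help droplets form, fell by 0.81 and 0.73 at 4 weeks and by 1.43 and 1.36 at 8 weeks on the log2 scale. Fitm2 stood at 140.4, 118 and 162 CPM in Klf9KI hearts and 361, 345.5 and 390.1 CPM in Wt-Cre hearts at 8 weeks, with no overlap. The effect on Fitm2 fell by 0.85 between 4 weeks and 1 week (adjusted p = 0.04) and fell by 1.5 between 8 weeks and 1 week (adjusted p = 0.000114). The 4-week call of Fitm2 was lost in 1 of 14 alternatives. Cidea, a droplet fusion protein, fell by 0.88 at 4 weeks, and its relative Cideb rose by 2.57 with counts of 17, 25 and 11 in Klf9KI and 2, 3 and 2 in Wt-Cre hearts (adjusted p = 0.0165). At those counts the fitted size of the Cideb difference depends on the prior count, and the call was lost in 3 of 13 alternatives.

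None of the 9 tested lipase cofactors, inhibitors and other neutral lipases was called at 1 or at 4 weeks in edgeR. Abhd5, the activator of Pnpla2, had log2 fold changes of −0.14, −0.13 and −0.41 at 1, 4 and 8 weeks (adjusted p = 0.751, 0.658 and 0.322). G0s2, an inhibitor of Pnpla2, had 0.16, 0.10 and −0.46 (adjusted p = 0.708, 0.72 and 0.469). G0s2 stood at 36.6, 12.6 and 38.2 CPM in Klf9KI hearts and 33.2, 42.5 and 47.6 CPM in Wt-Cre hearts at 8 weeks, with Klf9KI heart 2 the lowest of all. Hilpda, another inhibitor, averaged 6.22 ± 1.44 CPM in Klf9KI and 5.74 ± 1.65 CPM in Wt-Cre hearts at 8 weeks (SD, n = 3 each). With the replicate block 1 fell at 4 weeks. At 8 weeks 1 of 8 fell, Nceh1, a neutral cholesterol ester hydrolase (−0.62, adjusted p = 0.0431, lost in 5 of 14 alternatives).

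In the list of lipoprotein lipase and lipoprotein uptake, Lpl, which frees fatty acids from circulating lipoproteins, rose by 0.60 at 1 week (adjusted p = 0.0251) and fell by 0.48 at 4 weeks (adjusted p = 0.0497) on the log2 scale. Lpl stood at 1883, 1862 and 1873 CPM in Klf9KI hearts and 1376, 1228 and 1066 CPM in Wt-Cre hearts at 1 week. At 4 weeks it stood at 3211, 4433 and 3894 CPM in Klf9KI hearts and 5121, 5404 and 5460 CPM in Wt-Cre hearts. These groups were apart at both ages, in opposite directions, and the difference between the effects was −1.08 (SE 0.24, adjusted p = 0.0249). That difference was not adjusted for sex, although Klf9KI hearts 1 and 2 of 1 week carried Xist, unlike the Wt-Cre hearts. The 1-week call of Lpl was lost in 8 of 16 alternatives and the 4-week call in 7 of 14. The replicate block took the 4-week value to −0.49 (adjusted p = 0.0112), and with it 2 of the 9 genes rose and 3 fell at 4 weeks, against 0 and 1 without it. Mttp, which loads lipid onto lipoproteins, was among those that fell under the block (−0.86, adjusted p = 0.0388), and Lrp1 among those that rose (0.42, adjusted p = 0.0221). At 8 weeks 2 of 9 rose, among them the endocytic receptor Lrp1 by 2.01 (adjusted p = 0.00344). Lrp1 stood at 389, 776 and 304 CPM in Klf9KI hearts and 129.9, 97.5 and 141 CPM in Wt-Cre hearts at 8 weeks. Fibroblasts also make Lrp1, and their marker sum was higher in Klf9KI hearts at that age, as given above. The 5 fibroblast markers had a median of 0.66 on the log2 scale there, and 1 rose, where 4.96% of all genes did. The part of that shift in the Lrp1 difference was not tested.

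Among 20 other carboxylesterase genes only 2 to 4 had enough counts to be tested at an age. Ces5a was called at 8 weeks, where it rose by 3.39 with 34, 36 and 21 counts in Klf9KI hearts and 3, 3 and 0 counts in Wt-Cre hearts (adjusted p = 0.0425, lost in 5 of 14 alternatives). Its level in Klf9KI hearts, 2.05 ± 0.763 CPM, was far below that of Ces1d in Wt-Cre hearts. None of the 2 to 3 tested genes of cholesterol esterification was called at any age.

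**Figure D4:**
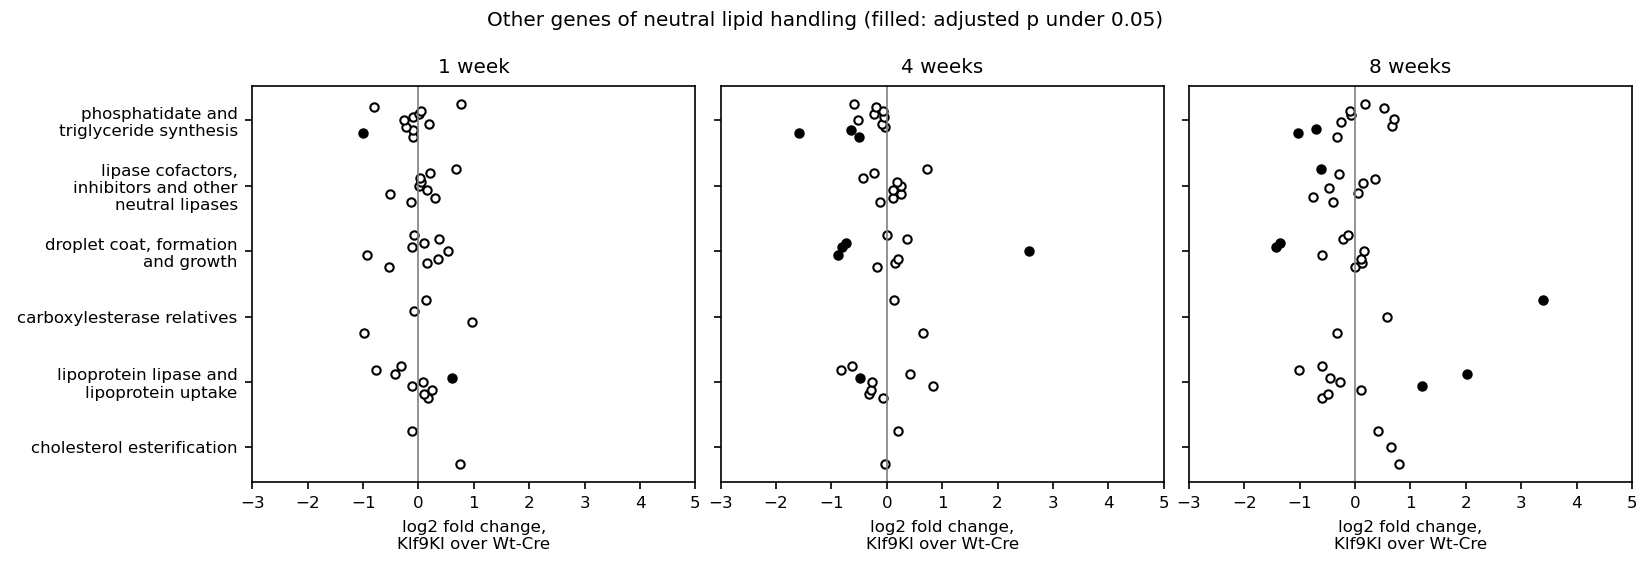
Log2 fold change of Klf9KI over Wt-Cre (horizontal axis) for the tested genes of 6 lists of neutral lipid handling (rows, 1 point per gene) at 1, 4 and 8 weeks (panels), with filled points at an adjusted p under 0.05. Fitm1 and Fitm2 lie near −1.4 at 8 weeks, and the filled points furthest to the right are Cideb at 4 weeks and Ces5a at 8 weeks.

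The genes whose log2 CPM followed Ces1d most closely over the 18 libraries, among 11067 genes of at least 5 CPM on average, were Map7d1 (r = 0.963), Rpl3l (r = 0.963), Slc2a4 (r = 0.955), Etfa (r = 0.954) and Pln (r = 0.954). These are a microtubule-associated protein, a ribosomal protein of striated muscle, the insulin-responsive glucose transporter, a subunit of the electron transfer flavoprotein and phospholamban. Of the 10 genes, Plin3 (r = 0.943), Plin5 (r = 0.925) and Dgat2 (r = 0.904) were closest to Ces1d, and Dgat1 was least close (r = 0.273). The libraries share 6 group means, so these correlations describe the groups as much as single hearts. Rpl3l fell by 3.21 at 4 weeks and fell by 3.56 at 8 weeks on the log2 scale, the nearest in size to Ces1d among these 5. Rpl3l stood at 17.4, 27.8 and 27.9 CPM in Klf9KI hearts and 236, 189.6 and 249 CPM in Wt-Cre hearts at 4 weeks.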

How the data were processed

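Whole-heart RNA libraries (3 per genotype and age) and 2 Klf9 ChIP libraries with pooled input were used. Each RNA group is 1 deposited sample, with n = 3 in its title and 3 numbered columns, read as 3 hearts. The protocol in the labels is poly-A based, while the titles name total RNA. The raw read count per gene was deposited in 1 table per age, beside the authors' FPKM and their DESeq2 log2 fold changes and adjusted p-values. Per the submitters' processing notes, HISAT2 2.0.5, StringTie 1.3.3b, featureCounts 1.5.0-p3 and DESeq2 1.20.0 were used for RNA, fastp, BWA and MACS2 2.1.0 are named too, and the build was mm10. Strandedness is not given in the sources used here. The ChIP signal per merged region and library is the authors' deposited value, and its scaling is not stated. The 18 columns of the authors' normalised counts were not used.

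Counts were tested in edgeR 4.0.16 (R 4.3.3) with filterByExpr, TMM scaling and a robust quasi-likelihood fit, within each age (6 libraries), and in 1 fit of all 18 libraries for differences between ages, with Benjamini-Hochberg adjustment over all genes tested at a threshold of 0.05. SEs are the log2 fold change over the root of F. The test was checked on simulated counts. Ratios and sums of FPKM were compared by exact two-sided permutation tests in scipy 1.17.1, which with 3 against 3 cannot go below 0.1. Promoter windows and motif matches come from RefSeq. Alternatives were DESeq2 1.42.0, its size factors, leaving out the filter, keeping genes at 1 CPM in 3 libraries, the replicate block, mitochondrial genes left out, sex as a covariate at 1 week, the fit of all 18 libraries and each library left out. A fit without robust estimation and one without the 2 Xist-carrying libraries were chosen after seeing the data.

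Replicate numbers come from the column names. The labels give no pairing. Deviations of same-numbered hearts from their group means correlated at 0.221, 0.118 and 0.373 at 4 weeks and at 0.139, 0.202 and 0.275 at 8 weeks. At 1 week they correlated at 0.0769, 0.105 and −0.216. Deviations of other-numbered hearts correlated at −0.318 to 0.146 at 4 weeks and at −0.282 to 0.0809 at 8 weeks. Whether the numbers pair hearts is thus not known. The main tests left the numbers out, and the replicate block was run as an alternative. Genes were named as all 10 members, the called genes of the 6 lists, marker genes, and the 5 genes most like Ces1d by Pearson correlation of log2(CPM + 0.5) over 18 libraries. One called gene of the lists is not reported here. Members and lists were chosen with earlier results of these data known.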

Additional observations from a re-analysis of the deposited data

Results flagged for a closer look

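The genotype effect (log2 of Klf9KI over Wt-Cre) differed between ages for 3 of the 10 genes, tested as an interaction in the edgeR fit of all 18 libraries. Between 4 weeks and 1 week the effect on Plin3 moved by −1.064 and that on Dgat2 by −1.498 on the log2 scale. Between 8 weeks and 1 week the effect on Plin3 moved by −1.037, that on Plin5 by −0.9917 and that on Dgat2 by −1.76. These 5 differences kept their direction and their call in all 22 alternatives run. None of these alternatives adjusted for sex, although Klf9KI hearts 1 and 2 of 1 week carried Xist, unlike the Wt-Cre hearts. The ages share no libraries, but both differences of a gene share its 1-week hearts.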

How the results depend on the processing

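At 1 week 0 of the 9 genes tested were called, against 2 with the DESeq2 Wald test, 2 without a filter and 0 to 1 with each replicate left out. Over all genes, the main fit called 266 of 15825, the DESeq2 Wald test 530 of 13507 and the unfiltered fit 672 of 26234. With a replicate left out, 78 to 238 of all genes were called. The 7 calls at 4 weeks were 5 to 7, and the 5 at 8 weeks 4 to 6, with a replicate left out. Over all genes, the 1945 calls at 4 weeks were then 873 to 2654, and the 1518 at 8 weeks 518 to 2102. The genotype effect differed between 4 weeks and 1 week for 2 genes, for 5 with the DESeq2 Wald test and for 2 to 4 with a library left out. Over all genes it differed for 192 of 16660, for 399 of 16462 with the DESeq2 Wald test and for 106 to 298 with a library left out. For 8 weeks against 1 week it differed for 3 genes, and for 3 to 5 with a library left out, and for 8 against 4 weeks for 0 throughout. Over all genes, 1574 of 16660 differed for 8 weeks against 1 week, and 942 to 2414 with a library left out. For 8 against 4 weeks 80 of 16660 did, and 416 of 15630 with the DESeq2 Wald test. In Wt-Cre hearts 2 genes differed between 8 and 4 weeks, 4 with the DESeq2 Wald test and 1 to 4 with a library left out. Over all genes, 3180 of 16660 differed there, 3823 of 16046 with the DESeq2 Wald test and 2004 to 4073 with a library left out. The replicate block changed no member's call at any age, with 7 called at 4 weeks, 5 at 8 weeks and 0 at 1 week. Its part in the list counts at 4 weeks is given with them. The calls of Ces1d, Plin3, Plin5 and Dgat2 at 4 and 8 weeks and of Lpin1 at 4 weeks held in all 14 alternatives. The causes of these shifts were not tested. Low counts limit Ces1d at 1 week, Cideb and Ces5a.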
